A study of Mus musculus with 12 samples.

Results

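The genes described here are the 10 that carry out the main steps of MHC class I antigen presentation: the heavy chains H2-K1 and H2-D1, the light chain B2m, the peptide transporter Tap1 and Tap2, the loading factor Tapbp, the immunoproteasome subunits Psmb8, Psmb9 and Psmb10, and the regulator Nlrc5. They were taken by symbol for this role, with earlier results of these data known, and are 10 of the 52550 genes in the table. All 10 passed the filter on low counts, which left 16823 genes to test. RNA sequencing was done on D2A1 and D2.OR, a pair of mouse mammary cancer cell lines derived from separate D2 hyperplastic alveolar nodule tumours, with 3 libraries in each of 4 groups (D2A1 2D, D2A1 3D, D2.OR 2D and D2.OR 3D). 2D stands for culture on plastic and 3D for culture on top of Matrigel, a basement membrane gel. The study's methods describe 2D culture both in standard medium and in the 3D medium, which holds horse serum, hydrocortisone, cholera toxin and insulin. Whether the medium of these 2D libraries differed from that of 3D is thus not certain. The study uses D2.OR as a model of dormancy in 3D and D2A1 as its dividing counterpart. The labels give no treatment or engineered allele for any group. Each line is a single established line, so a difference between the lines is a difference between these 2 cultures, and the RNA of each 3D library came from several pooled wells after the Matrigel had been dissolved. The library names carry a number from B1 to B3 that equals the replicate number, and all 4 libraries of 1 number were run on 1 sequencing lane. This number is called the batch, as in the model of the study's methods, and culture batch and lane cannot be told apart.

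MHC class I molecules show peptides from inside the cell to CD8+ T cells. The proteasome cuts proteins into peptides, the TAP transporter (Tap1 with Tap2) carries them into the endoplasmic reticulum, and tapasin (Tapbp) helps to load them onto a heavy chain bound to beta-2 microglobulin (B2m). Interferons raise many of these genes, among them inducible catalytic subunits that take the place of the constitutive ones in newly made proteasomes, and Nlrc5 is a transactivator that acts at a conserved promoter module, whose X box holds a CRE-like sequence and whose Y box holds an inverted CCAAT sequence. Tumour cells with low levels of these genes are less visible to T cells.

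On GRCm38 the genes lie on 3 chromosomes. Tapbp (chr17:33915899-33929288), H2-K1 (chr17:33996017-34000333), Psmb9 (chr17:34181988-34187764), Tap1 (chr17:34187553-34197225), Psmb8 (chr17:34197721-34201454), Tap2 (chr17:34203527-34216321) and H2-D1 (chr17:35262730-35267499) are in the MHC region of chromosome 17. Nlrc5 (chr8:94434356-94527272) and Psmb10 (chr8:105935735-105938444) are on chromosome 8, and B2m (chr2:122147686-122153083) is on chromosome 2. The gene bodies of Psmb9 and Tap1, on opposite strands, overlap at their 5′ ends, and the counting is not stated to use strand, so reads in that overlap cannot be assigned with certainty.

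Promoter windows (RefSeq, GRCm38.p6, 250 bases before to 50 bases after the start, the most upstream window of each gene) were at hand for 8 of the 10 genes, all but Tap2 and Nlrc5. The stretch from the CRE-like core TGACG to the inverted CCAAT box ATTGG is shown for the 3 genes in which they stood 25 bases apart, start to start, because these genes encode both chains of the class I molecule. Capitals mark both motifs.
H2-K1, chr17:34000359-34000388, minus strand: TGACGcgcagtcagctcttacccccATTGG
H2-D1, chr17:35262993-35263022, plus strand: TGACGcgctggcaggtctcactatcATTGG
B2m, chr2:122147609-122147638, plus strand: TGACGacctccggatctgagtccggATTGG
The first base of the stretch was 41, 101 and 78 bases before the RefSeq start of H2-K1, H2-D1 and B2m, respectively. The starts of the gene coordinates given above are other ones: against those, it was 55 and 77 bases before the start of H2-K1 and B2m but 263 bases after that of H2-D1, where all 30 bases lie in an exon of the GENCODE annotation. The same pair at the same spacing was present in 16 of 27025 promoter windows (0.0592%), and the spacing was chosen after these 3 sequences had been seen. H2-K1 and H2-D1 are paralogues and share much of this sequence.

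The upstream part of the window is shown for B2m, the only member whose window held the searched core of an interferon-stimulated response element (GAAANNGAA), and for H2-K1, which held none. Capitals mark that core, TGACG and the CCAAT box on either strand.
B2m, chr2:122147437-122147685, plus strand: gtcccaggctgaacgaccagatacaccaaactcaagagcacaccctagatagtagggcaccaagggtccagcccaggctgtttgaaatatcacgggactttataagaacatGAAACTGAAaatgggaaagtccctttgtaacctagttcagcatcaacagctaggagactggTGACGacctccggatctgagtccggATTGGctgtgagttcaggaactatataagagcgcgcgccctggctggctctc
H2-K1, chr17:34000348-34000597, minus strand: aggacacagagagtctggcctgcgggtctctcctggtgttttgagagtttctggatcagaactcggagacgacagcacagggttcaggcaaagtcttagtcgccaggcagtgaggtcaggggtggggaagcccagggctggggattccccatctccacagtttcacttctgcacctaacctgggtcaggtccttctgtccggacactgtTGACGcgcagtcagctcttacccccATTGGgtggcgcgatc
Matches were exact and counted on both strands. CCAAT was found in the windows of 6 of the 8 members, against 38% of all windows, and TGACG in 5 of 8, against 20.9%. GAAANNGAA was found in 1 of 8 (8.58% of all windows) and the gamma-activated site TTCNNNGAA in 1 of 8, Psmb8 (8.42%). Tap1 and Psmb9 start close to each other on opposite strands, so their windows overlap and share matches. A match describes letters in the window and nothing about binding, and no match does not mean that a response element is absent.

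Total counts were 47589611 to 73325069 a library (median 61747126), so counting error was small for every member. The lowest value of any member was 134 estimated counts, for Psmb9 in a D2A1 3D library, and the highest was 89961, for B2m. The 10 genes together took from 0.0652% to 0.389% of all counts. Levels are given as TPM, transcript abundance corrected for length and scaled to the library. The 3 pan-leukocyte markers summed to 0.18 to 2.89 TPM and the 7 lymphocyte markers to at most 1.02 TPM, while the 8 macrophage and dendritic cell markers, described last, reached 193 TPM through Cd14. The 3 endothelial markers summed to at most 0.42 TPM. Fibroblast and mesenchymal markers were detected in every group. The 5 fibroblast markers, of which none was at 0 throughout a group, summed to 57.2 to 78.1 TPM in D2A1 2D, 28.6 to 43.8 in D2A1 3D, 183 to 336 in D2.OR 2D and 118 to 322 in D2.OR 3D. The sums of D2.OR lay above those of D2A1 in both cultures, and those of D2A1 2D above those of D2A1 3D, with no overlap, while the sums of D2.OR 2D and 3D overlapped. The collagen gene Col1a1 averaged 50.3 TPM in D2.OR 2D and 1.49 in D2A1 2D, and Pdgfrb, a growth factor receptor, 38.6 TPM in D2A1 2D and 7.33 in D2A1 3D. Not all of the 5 followed the sums. In D2A1, Col1a1 (0.54 TPM in 3D) and Col1a2 (1.02 in 2D and 0.393 in 3D) were lower in 3D. Pdgfra averaged 22.6 TPM in D2A1 2D and 24.3 in D2A1 3D, and Dcn 0.667 and 3.16. In D2.OR 3D the mean of Dcn was 1.2 TPM, below that of D2A1 3D. The 5 mesenchymal markers summed to 3017 to 3568 TPM in D2A1 2D and 4814 to 6008 in D2.OR 2D, and to 1729 to 3531 in D2A1 3D and 3585 to 6410 in D2.OR 3D, with Cdh2 at no more than 0.14 TPM. These sums mostly follow Vim, and the markers were not alike. In 2D the mean of Vim was higher in D2.OR (4093 against 1336 TPM in D2A1). Those of Zeb1 (5.80 against 19.5), Fn1 (1291 against 1805) and Twist1 (92.3 against 105) were lower. In 3D Zeb1 was again lower in D2.OR (2.30 against 14.3), while Vim, Fn1 and Twist1 had higher means. The part of these markers in the class I differences was not tested. Of the epithelial markers, Krt8 was at 0.78 to 2.31 TPM in D2A1 and at 227 to 1022 TPM in D2.OR, and Epcam did not exceed 0.17 TPM in D2A1, while Krt18 was at 92.7 to 294 TPM in D2A1, the only 1 of the 7 epithelial markers above 2.31 TPM there. In such bulk libraries, fewer cells expressing a gene and less RNA per cell cannot be told apart.

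For all 10 genes the highest group mean was in D2.OR 2D and the lowest in D2A1 3D. B2m was by far the most abundant, and Nlrc5 and Psmb9 were the least. Beta-2 microglobulin, the light chain shared by all class I molecules, stood at 1985, 1444 and 1441 TPM in D2A1 2D and at 1435, 461 and 420.3 TPM in D2A1 3D (replicates 1, 2 and 3). In D2.OR it was at 2969.9, 1771 and 1939 TPM in 2D and at 2442, 1309.7 and 924 TPM in 3D. Replicate 1 was the highest library in each of the 4 groups, and in D2A1 the 2D and 3D ranges of B2m came within a few TPM of each other without overlapping.

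**Figure D1:**
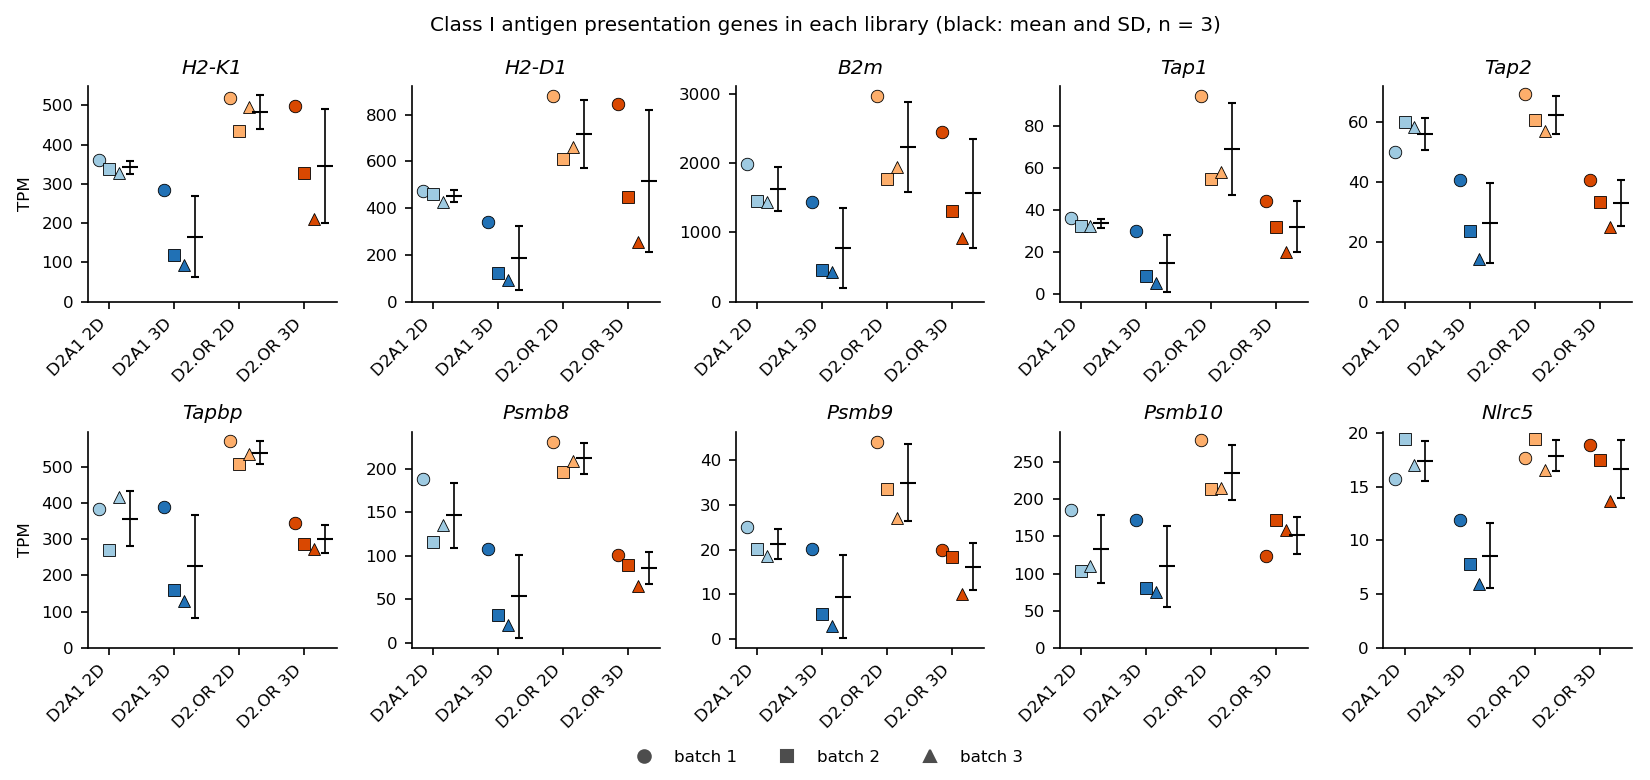
TPM (y axis, linear) of each of the 10 genes in the 12 libraries, by group, with the batch as the symbol and the group mean and SD (n = 3) in black. D2.OR 2D has the highest mean and D2A1 3D the lowest in all 10 panels, and the batch 1 library of D2A1 3D lies above the other 2 of its group for every gene.

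Next come the heavy chains. H2-K1, a classical heavy chain, was at 361, 338 and 327 TPM in D2A1 2D, at 284, 119.8 and 92.8 TPM in D2A1 3D, at 518, 435 and 496 TPM in D2.OR 2D and at 499, 329 and 211 TPM in D2.OR 3D. H2-D1, the other classical heavy chain, was at 474, 460.1 and 425 TPM in D2A1 2D, at 342, 124 and 93.3 TPM in D2A1 3D, at 881, 611 and 659.8 TPM in D2.OR 2D and at 847, 448 and 254 TPM in D2.OR 3D. Both genes had 3D ranges below the 2D ranges in D2A1 and overlapping ranges in D2.OR. The sum of both heavy chains over B2m was 0.420 to 0.596 in TPM across the 12 libraries. Both heavy chain genes share sequence with other class I genes: 9.63% of the 50-base words of H2-K1 transcripts and 12.8% of those of H2-D1 were also found in transcripts of other genes, against 0% for B2m, Psmb9, Psmb10 and Nlrc5 and at most 2.87% for the other 4. Estimated counts, which are not whole where reads were divided between genes, were not whole in any of the 12 libraries for H2-K1, H2-D1, Tap2 and Tapbp, and in 11 for Tap1 and Psmb9. The split of heavy chain reads between class I genes is thus uncertain. The reference genome is also that of C57BL/6J, whereas these lines come from BALB/c mice, whose class I alleles differ. H2-L, a class I gene that BALB/c mice carry, is not analysed here, and whether its reads were counted under H2-D1 or another class I gene is not known.

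The transporter and loading genes had the same highest and lowest groups as the heavy chains, but with D2A1 2D above D2.OR 3D between them, where H2-K1 and H2-D1 had D2.OR 3D above D2A1 2D. Tap1, a subunit of the transporter, was at 36.2, 32.5 and 32.2 TPM in D2A1 2D and at 30.1, 8.58 and 4.89 TPM in D2A1 3D. In D2.OR it was at 94.4, 54.7 and 58.2 TPM in 2D and at 44.4, 31.6 and 19.9 TPM in 3D. The ranges of Tap1 did not overlap between 2D and 3D in either line. Tap2, the other subunit, was at 49.8, 59.7 and 58.2 TPM in D2A1 2D, at 40.5, 23.6 and 14.2 TPM in D2A1 3D, at 69.0, 60.5 and 57.0 TPM in D2.OR 2D and at 40.4, 33.2 and 24.98 TPM in D2.OR 3D. Its levels separated by culture and overlapped between the lines. Tapbp, which bridges the transporter and the empty heavy chain, was at 385, 272 and 417 TPM in D2A1 2D, at 389, 159 and 128 TPM in D2A1 3D, at 574, 509.8 and 537 TPM in D2.OR 2D and at 347, 286 and 274 TPM in D2.OR 3D.

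Nlrc5 stood out in 2D, where the lines were alike: 15.7, 19.4 and 17.01 TPM in D2A1 and 17.6, 19.4 and 16.6 TPM in D2.OR. In 3D it was at 11.9, 7.82 and 5.95 TPM in D2A1 and at 18.8, 17.5 and 13.7 TPM in D2.OR. It was the only 1 of the 10 genes whose 3D ranges did not overlap between the lines. Of all genes tested, 29.1% had a D2.OR 3D range above that of D2A1 3D.

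The first comparison asked whether D2.OR and D2A1 differ in 2D, where both lines proliferate. Tap1, Tapbp and Psmb10 were higher in D2.OR, 3 of the 10 genes, and none was lower. Across all genes tested, 25.4% were called higher and 24.4% lower in D2.OR, so this count was close to the background. Tap1 was higher with a log2-fold change of 1.05 ± 0.34 (SE, edgeR quasi-likelihood test with Benjamini-Hochberg adjustment over all genes, adjusted p = 0.0303). Psmb10 gave 1.01 ± 0.31 (adjusted p = 0.0214, edgeR) and Tapbp 0.69 ± 0.25 (adjusted p = 0.0484, edgeR). All 10 estimates were above 0, from 0.06 for Nlrc5 to 1.05, with a median of 0.69 against 0.00 over all genes, and within each batch the median was 0.70, 0.69 and 0.69, with Nlrc5 in batch 3 (-0.06 in log2 CPM) the only value below 0. The TPM ranges of D2.OR lay above those of D2A1 for 7 of the 10 genes, as they did for 22.1% of all genes tested. Without the batch term none of the 10 was called in 2D, while 7391 of 16823 genes were. With all 4 libraries of replicate 1 left out 8 were called, as they were without D2A1 3D replicate 1 alone, with 9062 of 16842 and 8496 of 17256 genes called in all against 8378 of 16823 before. None was called without all of replicate 2 (4227 of 17005 genes), or without D2A1 2D replicate 2, D2.OR 2D replicate 2 or D2.OR 2D replicate 3 (6863 of 17351, 6486 of 17333 and 6782 of 17350 genes). Without all of replicate 3 (5400 of 16980 genes) or without D2A1 2D replicate 1 (8865 of 17305 genes) 1 was called.

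In 3D, the setting of the dormancy model, 5 of the 10 genes were higher in D2.OR and none was lower, against 27.7% of all genes called higher and 26.1% called lower. These were both heavy chains, the light chain, Tap1 and Nlrc5. H2-D1 differed most, at 1.48 ± 0.30 (SE, adjusted p = 0.00271, edgeR), a fold of 2.78. H2-K1 was at 1.08 ± 0.26 (adjusted p = 0.00675), B2m at 1.08 ± 0.22 (adjusted p = 0.00336), Tap1 at 1.34 ± 0.35 (adjusted p = 0.0106) and Nlrc5 at 0.77 ± 0.20 (adjusted p = 0.0107), all by edgeR. Tap2 (0.38 ± 0.22), Tapbp (0.58 ± 0.25) and the 3 immunoproteasome subunits (0.73 to 1.08) had estimates above 0 that did not pass. The median of the 10 was 0.98. The median difference was 0.23 within batch 1, where 6 of the 10 values were above 0, against 1.40 and 1.26 within batches 2 and 3. The TPM ranges of D2.OR 3D and D2A1 3D were apart for Nlrc5 alone, 1 of 10, against 29.1% of all genes tested. The count was 10 without D2A1 3D replicate 1 and also without all of replicate 1, settings in which 8566 of 17256 and 9581 of 16842 genes were called in either direction, against 9044 of 16823 with all libraries. The count was 0 without replicate 2 (5273 of 17005 genes) and 3 without replicate 3 (5975 of 16980 genes), without D2A1 3D replicate 2 (7286 of 17274 genes) or without the batch term (8037 of 16823 genes).

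**Figure D2:**
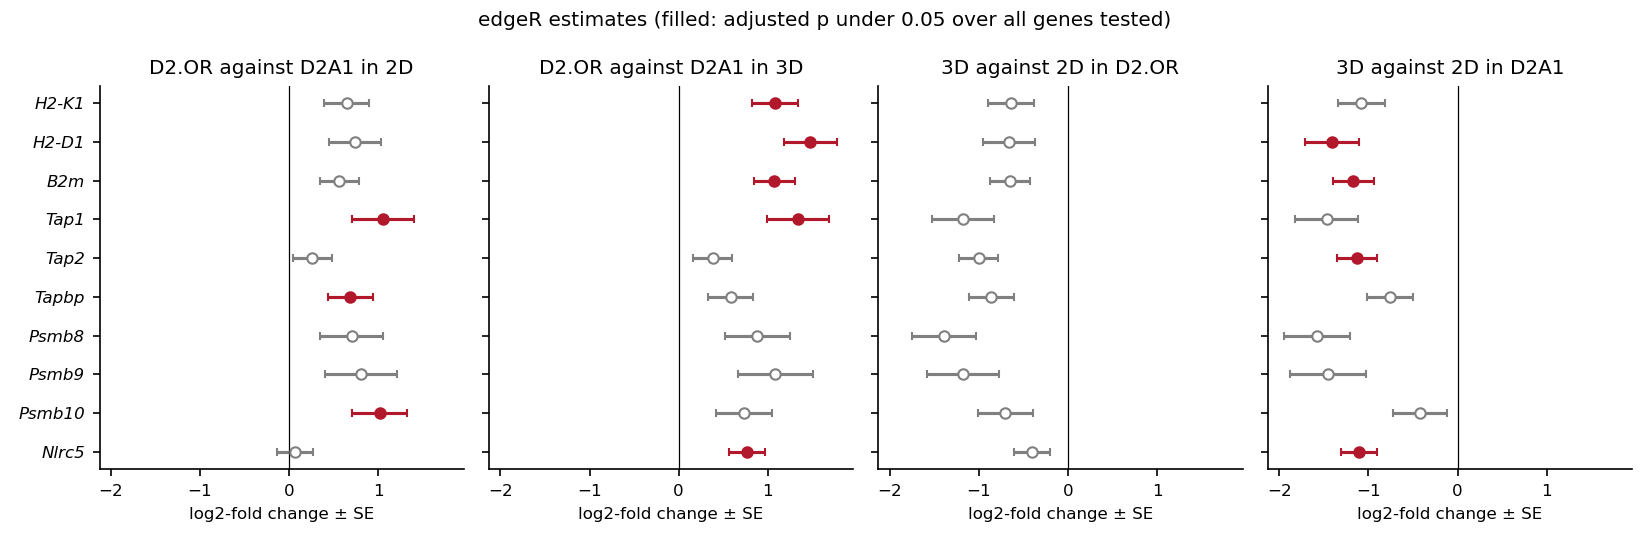
Log2-fold change with its SE (x axis) of the 10 genes in the comparisons between lines and between cultures, from the edgeR fit. Filled red points passed an adjusted p of 0.05 over all genes tested: 3 in 2D and 5 in 3D between the lines, none for 3D–2D in D2.OR and 4 for 3D–2D in D2A1. All estimates lie on 1 side of 0 within each panel.

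The next question was how these genes differ between 3D and 2D culture within a line. In D2A1, 4 of the 10 genes were lower in 3D, against 2.12% of all genes tested. Nlrc5 fell by 1.11 ± 0.20 on the log2 scale (SE, adjusted p = 0.0359, edgeR), B2m by 1.17 ± 0.23 (adjusted p = 0.0396), Tap2 by 1.13 ± 0.22 (adjusted p = 0.0404) and H2-D1 by 1.41 ± 0.30 (adjusted p = 0.0453). The other 6 were on the same side of 0 with larger p-values. Psmb8 had the largest estimate, -1.58 ± 0.37 (adjusted p = 0.0513), followed by Tap1 at -1.47 ± 0.36 (adjusted p = 0.0528) and Psmb9 at -1.45 ± 0.42 (adjusted p = 0.0682). H2-K1 was at -1.08 ± 0.26 (adjusted p = 0.0528), Tapbp at -0.76 ± 0.26 (adjusted p = 0.0885) and Psmb10 at -0.42 ± 0.30 (adjusted p = 0.371), all by edgeR. The median was -1.15, against 0.00 over all genes. The TPM ranges of 2D lay above those of 3D for 7 genes, against 15.3% of all genes. These calls sat close to the threshold: the batch term removed, or the 6 D2A1 libraries fitted alone, left none of the 10, with 52 of 16823 and 15 of 15293 genes called in all against 586 of 16823 before. DESeq2 called 9, and 3512 of all 15192 genes to which it gave an adjusted p.

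The size of the fall in D2A1 differed between batches. In log2 CPM, the logarithm of counts scaled to library size, all 10 genes were lower in 3D in each batch, with medians of -0.35, -1.40 and -1.76 in batches 1, 2 and 3. Tap1 differed by -0.31, -1.76 and -2.53 and Psmb8 by -0.77, -1.69 and -2.62. The batch 1 library of D2A1 3D thus stood far closer to its 2D counterpart than the other 2 did. In TPM, which also corrects for the isoform lengths of each library, Tapbp was slightly higher in 3D in batch 1 (389 against 385). Without D2A1 3D replicate 1 there were 9 calls, without D2A1 2D replicate 1 there were 8 and without all of replicate 1 there were 10. Calls over all genes rose as well under these settings, from 586 of 16823 with all libraries to 2208 of 17256, 5237 of 17305 and 6120 of 16842. None was left without all of replicate 2 or all of replicate 3, and the same held when any single library of replicate 2 or 3 was left out, in D2A1 or D2.OR and in 2D or 3D. This loss was general: 0 of all genes were called without replicate 2 or without replicate 3, and 0 to 105 without single libraries of these replicates. Without D2.OR 3D replicate 1 there was 1 call, with 359 of 17267 genes in all.

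In D2.OR none of the 10 genes was called in 3D against 2D by edgeR, with 0.785% of all genes called lower. With no adjustment 9 had p under 0.05, as had 2967 of all 16823 genes. DESeq2 called 4, and 1174 of all 16170 genes to which it gave an adjusted p. All 10 estimates were below 0, with a median of -0.78. The largest was Psmb8 at -1.40 ± 0.36 (SE, adjusted p = 0.0958, edgeR), and the smallest adjusted p was that of Tap2, 0.0612, at -1.002 ± 0.22. Tap1 was at -1.18 ± 0.35 (adjusted p = 0.128) and Psmb9 at -1.18 ± 0.41 (adjusted p = 0.182). The heavy chains and B2m were at -0.64 to -0.67 and Nlrc5 at -0.40 ± 0.20 (adjusted p = 0.334). All 10 were lower in 3D in each batch in log2 CPM, with medians of -0.92, -0.63 and -1.21. In TPM, Nlrc5 was higher in 3D in batch 1 (18.8 against 17.6). The TPM ranges of 2D lay above those of 3D for 6 genes, against 7.58% of all genes. Leaving out all of replicate 1 gave 9 calls, with 1412 of 16842 genes called in all against 273 of 16823 before, and leaving out D2A1 3D replicate 1 gave 5, with 522 of 17256. Leaving out D2A1 2D replicate 1, D2A1 2D replicate 3 or D2A1 3D replicate 3 gave 1 each, with 635 of 17305, 301 of 17349 and 167 of 17259 genes in all. The D2.OR and D2A1 values rest on separate libraries of each line but on 1 shared estimate of the spread.

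**Figure D3:**
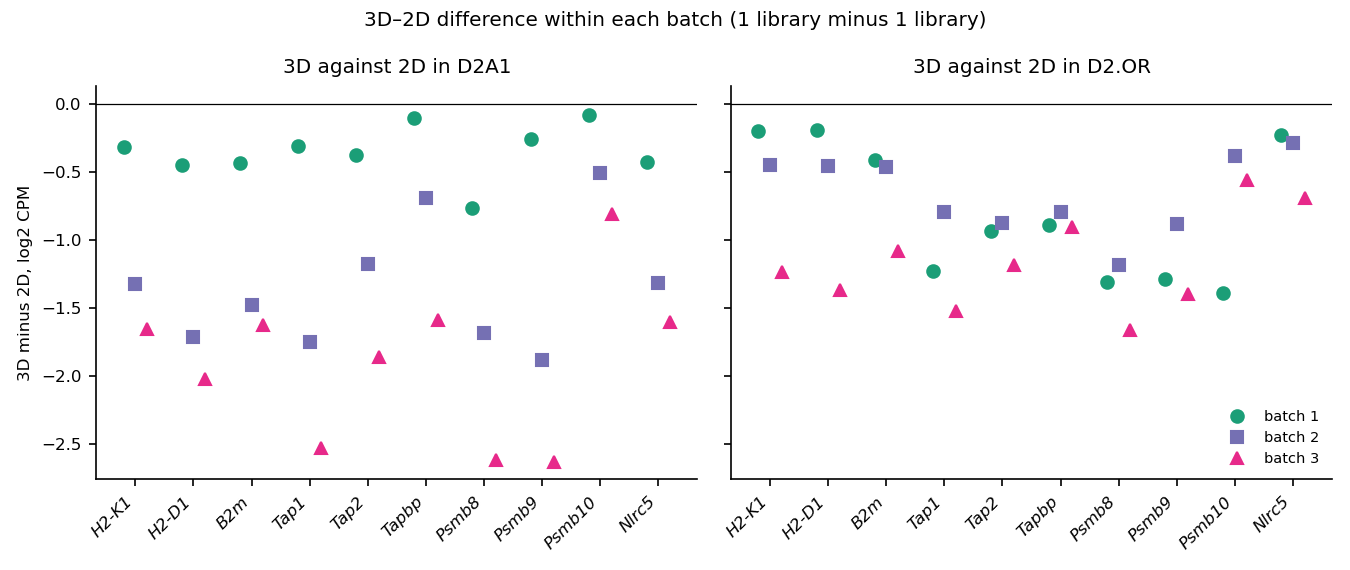
Difference between the 3D and the 2D library of the same line and batch in log2 CPM (y axis), for each gene and batch. All 60 points are below 0, and for each gene in D2A1 the batch 1 point lies nearest to 0.

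Whether the response to 3D differs between the lines was tested with an interaction term, the 3D–2D change in D2.OR minus that in D2A1. None of the 10 genes passed, with 0.0238% of all genes called in either direction. By edgeR 1 gene had an unadjusted p under 0.05, Nlrc5, whose estimate was 0.71 ± 0.28 (SE, adjusted p = 0.249), and DESeq2 called none of the 10, but 944 of 15844 genes in all. Estimates for the 10 genes ran from -0.28 for Psmb10 to 0.74 for H2-D1, with a median of 0.28. The median was -0.56 within batch 1 and 0.92 and 0.68 within batches 2 and 3, so the direction was not shared. Without replicate 1, 3 of the 10 genes were called, with 2999 of 16842 genes in all, and without D2A1 3D replicate 1 alone 1 was called, with 507 of 17256, against 4 of 16823 with all libraries.

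Batches were also compared directly. B2m was highest in replicate 1 of every group, as its levels above already show, so its batch values restate that order. Between batches 2 and 1, B2m was lower in batch 2, by 0.93 ± 0.19 on the log2 scale (SE, adjusted p = 0.0271, edgeR), 1 of 10 against 4.18% of all genes. Between batches 3 and 1, B2m was lower by 1.05 ± 0.20 (adjusted p = 0.0176) and H2-D1 by 1.04 ± 0.26 (adjusted p = 0.0424), 2 of 10 against 5.05% of all genes. All 10 estimates were below 0 in both, with medians of -0.63 and -0.81. No member was called between batches 3 and 2 by edgeR, where 0% of all genes were called and 458 of 16823 had an unadjusted p under 0.05, none of them a member. DESeq2 called none of the members there either. The B2m and H2-D1 calls depended on single libraries: the batch 2 count was 0 without D2A1 2D, D2A1 3D, D2.OR 2D or D2.OR 3D replicate 2 or without all of replicate 3, where 246 to 529 genes were called in all against 1140 before, and 2 without D2A1 2D replicate 1, where 2328 were. The batch 3 count was 0 without D2A1 3D or D2.OR 3D replicate 3 or without all of replicate 2 (377, 211 and 124 genes in all, against 1359 before), and 6 without D2A1 2D replicate 1 (2929 genes). It was 1 when the replicate 2 library of any 1 group was left out, and also when D2.OR 2D lost replicate 1 or 3, with 312 to 1080 genes in all.

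The immunoproteasome subunits replace constitutive ones with the same position, so each was set against its counterpart in TPM. Psmb8 replaces Psmb5, which carries the chymotrypsin-like activity. Psmb8 was at 188, 115.7 and 135 TPM in D2A1 2D, at 107.9, 31.8 and 20.5 TPM in D2A1 3D, at 231, 196 and 208 TPM in D2.OR 2D and at 101.4, 89.7 and 65.3 TPM in D2.OR 3D. As a share of Psmb8 plus Psmb5 this was 39.2% ± 5.21 in D2.OR 2D and 18.2% ± 6.26 in D2.OR 3D (SD, n = 3). In D2A1 the share was 27.0% ± 4.39 in 2D and 9.996% ± 8.57 in 3D. The ranges did not overlap between cultures in either line (34.97% to 45.04% against 12.6% to 24.96% in D2.OR, 22.8% to 31.5% against 4.001% to 19.8% in D2A1).

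Psmb9, which replaces Psmb6, was the scarcest of the inducible subunits. It was at 25.04, 20.03 and 18.5 TPM in D2A1 2D and at 20.0, 5.52 and 2.96 TPM in D2A1 3D. In D2.OR it was at 44.1, 33.6 and 27.1 TPM in 2D and at 19.96, 18.4 and 10.13 TPM in 3D. Its share was 13.6% ± 4.32 in D2.OR 2D, 6.46% ± 2.35 in D2.OR 3D, 5.02% ± 0.846 in D2A1 2D and 2.06% ± 1.91 in D2A1 3D. Psmb10, which replaces Psmb7, was at 186, 103.7 and 110.01 TPM in D2A1 2D, at 173, 80.1 and 75.7 TPM in D2A1 3D, at 280.01, 214 and 215 TPM in D2.OR 2D and at 123.7, 172 and 158.6 TPM in D2.OR 3D. Its share was the highest among the pairs, 52.7% ± 5.16 in D2.OR 2D and 38.7% ± 2.58 in D2.OR 3D against 29.6% ± 4.82 and 22.5% ± 7.83 in D2A1 2D and 3D. The mean share was lower in 3D in all 6 combinations of pair and line. For Psmb10 in D2A1 the ranges overlapped, with 25.7% to 35.0% in 2D and 17.1% to 31.5% in 3D.

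The constitutive counterparts were not called between cultures by edgeR, and their estimates were above 0. Psmb5, Psmb6 and Psmb7 had 3D–2D estimates of 0.20, 0.01 and 0.13 in D2.OR and of 0.37, 0.25 and 0.33 in D2A1, with adjusted p = 0.103 to 0.973 (edgeR). Between the lines, Psmb6 was lower in D2.OR by 0.69 ± 0.09 in 2D (SE, adjusted p = 0.000318, edgeR) and by 0.94 ± 0.09 in 3D (adjusted p = 5.22e-05), and Psmb7 by 0.43 ± 0.13 in 2D (adjusted p = 0.0201) and by 0.63 ± 0.13 in 3D (adjusted p = 0.00259). Psmb5 did not pass in either (adjusted p = 0.498 and 0.109). Of the 9 constitutive subunits, activators and assembly factors tested, of 10 listed, 5 were lower in D2.OR in each culture and none was higher, with medians of -0.43 in 2D and -0.61 in 3D, beside 24.4% and 26.1% of all genes called lower. Beside Psmb6 and Psmb7 these were Psme4 (-0.51 and -0.61 in 2D and 3D), Psme3 (-0.55 and -0.76), which are proteasome activators, and the assembly factor Pomp (-0.49 and -0.73). Psme1 and Psme2 encode the PA28 activator, which interferon also induces. Psme1 was lower in 3D than in 2D in D2.OR, by 0.83 ± 0.17 (SE, adjusted p = 0.0476, edgeR), and Psme2 was at -0.60 ± 0.15 (adjusted p = 0.0908), and DESeq2 called both lower. In D2A1 they were at -0.49 ± 0.17 (adjusted p = 0.0881) and -0.46 ± 0.15 (adjusted p = 0.0854), and none of the 9 was called there by edgeR, with 6 at an unadjusted p under 0.05 and 3 called by DESeq2: Psme1 (-0.51) and Psme2 (-0.48) lower and Psmb6 higher, by 0.24 (adjusted p = 0.0403). Over all genes, 5282 of 16823 had an unadjusted p under 0.05 by edgeR in D2A1, and DESeq2 called 3512 of 15192.

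**Figure D4:**
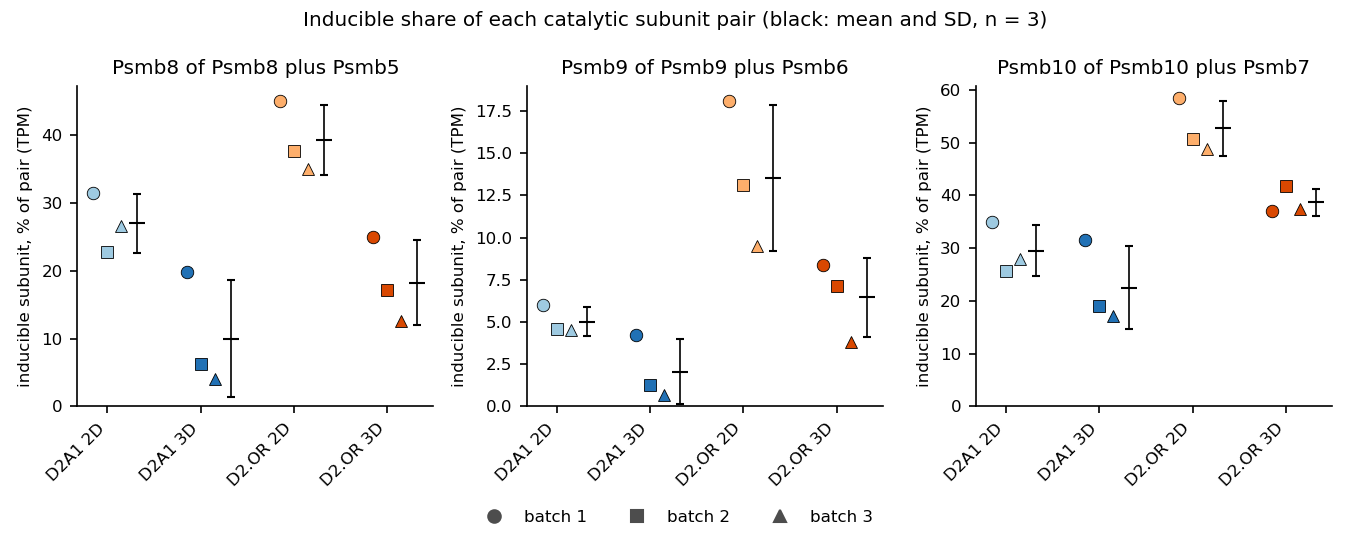
Share of the inducible subunit in each pair, in percent of the summed TPM (y axis from 0), in the 12 libraries by group and batch, with the mean and SD (n = 3) in black. Every mean is lower in 3D than in 2D of the same line, and every mean is lower in D2A1 than in D2.OR of the same culture.

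Among transcriptional regulators of class I genes, all 22 listed were tested. In D2.OR against D2A1, 8 were higher and 5 lower in 2D, and 7 were higher and 6 lower in 3D, with medians of 0.15 and 0.08. Over all genes 49.8% were called in either direction in 2D and 53.8% in 3D, so these counts were near the background. Irf1, an interferon-induced activator of class I and immunoproteasome genes, was higher in D2.OR by 1.25 ± 0.17 in 2D (SE, adjusted p = 0.000348, edgeR) and by 1.05 ± 0.17 in 3D (adjusted p = 0.000828). Irf2 was higher by 0.52 ± 0.11 (adjusted p = 0.00460) and 0.72 ± 0.11 (adjusted p = 0.000722). The components of the promoter-bound complex that Nlrc5 joins were not alike. Rfxap was lower by 1.13 ± 0.15 in 2D (adjusted p = 0.000259) and by 1.05 ± 0.14 in 3D (adjusted p = 0.000346), Nfya was lower in 2D by 0.87 ± 0.10 (adjusted p = 0.000111) and in 3D by 0.59 ± 0.10 (adjusted p = 0.000818), and Rfx5 was lower in 2D by 0.64 ± 0.18 (adjusted p = 0.0171) and at -0.45 ± 0.18 in 3D (adjusted p = 0.0645). Rfxank was higher in D2.OR by 0.71 ± 0.18 in 2D (adjusted p = 0.0113) and by 0.83 ± 0.18 in 3D (adjusted p = 0.00452), and Nfyb was higher in 2D by 0.65 ± 0.14 (adjusted p = 0.00482). Rela, a subunit of NF-kB, was higher in D2.OR in 2D by 0.74 ± 0.09 (adjusted p = 0.000141). In 3D, Suz12, a subunit of the Polycomb complex that can silence class I genes, was lower in D2.OR by 0.83 ± 0.10 (adjusted p = 0.000212), and Ciita, the class II counterpart of Nlrc5, was lower by 2.67 ± 0.41 (adjusted p = 0.000579) at no more than 0.48 TPM in any library.

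Between cultures, edgeR called 1 of the 22 regulators in each line, beside 1.62% of all genes in D2.OR and 3.48% in D2A1. DESeq2 called 2 lower in D2.OR, and 5 lower and 2 higher in D2A1, beside 1174 of 16170 and 3512 of 15192 genes. The edgeR call was Stat2, which works in type I interferon signalling. Stat2 was lower in 3D in both lines, by 1.25 ± 0.24 in D2.OR (SE, adjusted p = 0.0431, edgeR) and by 1.15 ± 0.24 in D2A1 (adjusted p = 0.0453). Irf9 was at -1.13 ± 0.30 in D2A1 (adjusted p = 0.0588), and Irf1 was at -0.62 ± 0.17 in D2.OR (adjusted p = 0.111) and -0.42 ± 0.17 in D2A1 (adjusted p = 0.133). Rfx5 was at -0.33 ± 0.18 and -0.53 ± 0.18 and Irf2 at -0.08 ± 0.11 and -0.28 ± 0.11 in D2.OR and D2A1, without passing. The median of the 22 was -0.11 in D2.OR and -0.05 in D2A1.

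Genes that interferon induces outside antigen presentation, 32 listed and 32 tested, were described in the same way. In 3D against 2D all 32 estimates were below 0 in D2.OR and 31 of 32 in D2A1, with Cxcl10 (0.22, adjusted p = 0.691, edgeR) the exception, and the medians were -1.21 and -1.44. By edgeR none passed in D2.OR, beside 0.785% of all genes called lower. There 23 had an unadjusted p under 0.05, beside 2967 of all 16823 genes, and DESeq2 called 8, beside 1174 of all 16170 genes. In D2A1 1 passed by edgeR, beside 2.12% of all genes called lower, and DESeq2 called 27, beside 3512 of all 15192 genes. The edgeR call was Ifit2, lower by 0.96 ± 0.19 (SE, adjusted p = 0.0410, edgeR). Bst2, a membrane protein that holds back budding virus, was at -1.88 ± 0.44 in D2.OR (adjusted p = 0.0730) and -1.91 ± 0.45 in D2A1 (adjusted p = 0.0513), Oas1a at -1.48 ± 0.41 in D2.OR (adjusted p = 0.114) and Ifit3 at -2.94 ± 0.82 in D2A1 (adjusted p = 0.0635). Between the lines 7 of the 32 were higher in D2.OR in 2D and 11 in 3D, and none was lower, beside 25.4% and 27.7% of all genes called higher, so these counts were near the background. Estimates were below 0 for 3 in 2D (Gbp3, Usp18 and Ifi35) and for 2 in 3D (Gbp2 and Gbp3), and the medians were 0.58 and 0.83. Those with the smallest p were Cxcl9 (4.98 ± 0.71 in 2D, adjusted p = 0.000452), a chemokine that draws T cells and that reached 2.82 TPM, Gbp5 (2.34 ± 0.36, adjusted p = 0.000721) and Mx1 (2.29 ± 0.44, adjusted p = 0.00230).

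Batches were compared for these genes as well. Between batches 2 and 1, 16 of the 32 were lower in batch 2, against 4.18% of all genes, and between batches 3 and 1, 15 were lower in batch 3, against 5.05%, with medians of -1.53 and -1.52 and none higher. Ifit2 was lower by 1.10 ± 0.16 in batch 2 (SE, adjusted p = 0.00927, edgeR) and by 1.14 ± 0.16 in batch 3 (adjusted p = 0.00807), and Samhd1 by 0.87 ± 0.14 (adjusted p = 0.0111) and 0.77 ± 0.14 (adjusted p = 0.0155). Irgm1, an interferon-induced GTPase, was lower by 1.73 ± 0.35 (adjusted p = 0.0235) and 1.64 ± 0.35 (adjusted p = 0.0252). In the D2A1 3D libraries, the mean of the 32 genes was 6.47 log2 CPM in batch 1 and 3.50 and 3.36 in batches 2 and 3, beside 6.67, 5.396 and 4.89 for the 10 class I genes. Within D2A1 the median 3D–2D difference of the 32 was -0.39 in batch 1 and -2.02 and -2.44 in batches 2 and 3. The part of the interferon-induced genes in the class I differences was not tested.

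**Figure D5:**
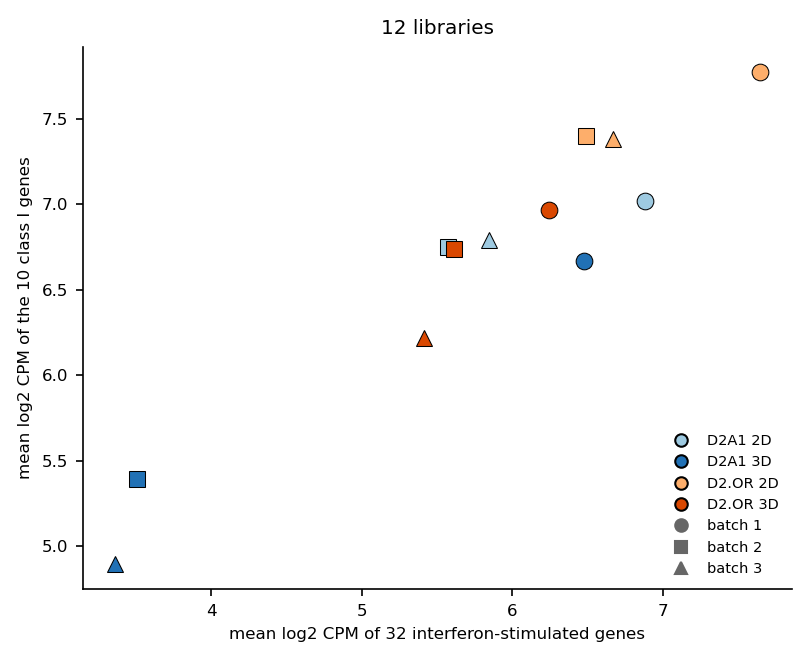
Mean log2 CPM of the 32 interferon-stimulated genes (x axis) and of the 10 class I genes (y axis) in each of the 12 libraries, with the group as the colour and the batch as the symbol. The D2A1 3D libraries of batches 2 and 3 lie lowest on both axes, at 3.50 and 3.36 on x, and the batch 1 library of D2.OR 2D lies highest on both. Libraries share batch and line, so the points are not independent.

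Interferon itself was barely seen. None of the 6 ligand genes listed passed the filter: Ifng was at 0 in 8 of the 12 libraries and reached 25 counts, 0.55 TPM, in D2.OR 2D replicate 1, Ifnb1 reached 9 counts, Ifna4 and Ifnk 1 count, and Ifnl2 and Ifnl3 had none. On the receiving side, 12 of the 18 listed ligands, receptors and kinases were tested. Ifngr1, a chain of the interferon-gamma receptor, was higher in D2.OR by 1.75 ± 0.18 in 2D (SE, adjusted p = 6.71e-05, edgeR) and by 2.07 ± 0.18 in 3D (adjusted p = 2.48e-05). The kinases Jak1 (0.75 ± 0.09, adjusted p = 0.00017) and Jak2 (1.23 ± 0.19, adjusted p = 0.000746) were also higher in D2.OR in 2D. Of the 12 genes 4 were higher and 2 lower in 2D, and 3 were higher and 3 lower in 3D, with medians of 0.21 and -0.09, beside 49.8% and 53.8% of all genes called in either direction. The lower ones were Socs1 (-0.75 and -0.71 in 2D and 3D) and Ifnar2 (-0.26 and -0.27) in both cultures and Socs3 (-1.15) in 3D. No gene of this group was called for 3D–2D in either line by edgeR, with medians of -0.24 in D2.OR and -0.10 in D2A1, and DESeq2 called 1 in D2.OR and none in D2A1. Over all genes, edgeR called 1.62% in D2.OR and 3.48% in D2A1, and DESeq2 1174 of 16170 and 3512 of 15192. With no adjustment, 3 genes of this group had p under 0.05 by edgeR in D2.OR and none in D2A1: Ifngr2 (-0.41 ± 0.12, adjusted p = 0.130), Socs3 (-0.88 ± 0.29, adjusted p = 0.166) and Ifnar1 (-0.28 ± 0.11, adjusted p = 0.221). Socs3, which restrains cytokine signalling, was higher in batch 2 than in batch 1 by 1.72 ± 0.26 (adjusted p = 0.00922), opposite to the class I genes.

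Other class I heavy chains and their relatives were read next, with 17 of 24 listed tested. In D2.OR against D2A1, 8 were higher and none lower in 2D, and 11 were higher and 1, H2-M3 (-0.36 ± 0.12, adjusted p = 0.0297, edgeR), lower in 3D, with medians of 0.71 and 1.29, beside 25.4% of all genes called higher in 2D and 27.7% in 3D. The genes with the smallest p are not classical presenters: Cd1d2 (9.16 ± 0.61 in 2D, adjusted p = 5.40e-06, edgeR) and Cd1d1 (1.01 ± 0.19, adjusted p = 0.00203) present lipids, Hfe (3.18 ± 0.33, adjusted p = 7.20e-05) takes part in iron sensing, and Fcgrt (3.38 ± 0.40 in 3D, adjusted p = 0.000144) is the neonatal Fc receptor. For 3D–2D none of the 17 was called in either line by edgeR, with 9 in D2.OR and 12 in D2A1 at p under 0.05 before adjustment, beside 2967 and 5282 of all 16823 genes, and medians of -0.77 and -0.97. DESeq2 called 6 and 12, all lower, beside 1174 of 16170 and 3512 of 15192 genes. H2-T10 was at -0.84 ± 0.20 (adjusted p = 0.0837) and -0.89 ± 0.21 (adjusted p = 0.0513), respectively. Mr1, which presents vitamin B metabolites, was at -1.10 ± 0.26 in D2.OR (adjusted p = 0.0740), and H2-M3 was at -0.45 ± 0.12 there (adjusted p = 0.102). H2-Q1 was at -1.25 ± 0.29 (adjusted p = 0.0513) and H2-T22 at -1.14 ± 0.27 (adjusted p = 0.0525) in D2A1. The H2 genes among them resemble H2-K1 and H2-D1 in sequence.

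Loading chaperones of the endoplasmic reticulum were listed together with peptide-trimming enzymes of several compartments. All 14 loading chaperones and peptide-trimming enzymes listed were tested, and 5 were higher and 3 lower in D2.OR in 2D, with 2 higher and 3 lower in 3D and medians of 0.12 and -0.07, against 49.8% and 53.8% of all genes called in either direction. Tapbpl, a relative of tapasin that edits peptides, was the opposite of Tapbp: it was lower in D2.OR by 0.99 ± 0.13 in 2D (SE, adjusted p = 0.000286, edgeR) and by 1.63 ± 0.13 in 3D (adjusted p = 1.60e-05). It was also lower in 3D in D2.OR, by 0.75 ± 0.13 (adjusted p = 0.0317), the only call of the 14 for 3D–2D in either line by edgeR. Over all genes, edgeR called 1.62% in D2.OR and 3.48% in D2A1. DESeq2 called 1 of the 14 lower in D2.OR and 2 lower in D2A1, beside 1174 of 16170 and 3512 of 15192 genes. Erap1, which trims peptides to the length that class I binds, was higher in D2.OR in 2D by 0.72 ± 0.16 (adjusted p = 0.00448) and Blmh by 0.49 ± 0.09 (adjusted p = 0.00152). Lnpep, an aminopeptidase of endosomes, was higher in D2.OR in 3D by 1.43 ± 0.15 (adjusted p = 8.36e-05), and the cytosolic aminopeptidase Npepps was lower by 0.59 ± 0.08 (adjusted p = 0.000402). The class II genes were mostly silent, with 3 of 11 tested. Cd74, the class II invariant chain, was higher in D2.OR in 2D by 2.75 ± 0.41 (adjusted p = 0.000590) at no more than 4.79 TPM, and the protease Ctss by 4.43 ± 0.54 (adjusted p = 0.000182), while H2-DMa was at -0.06 ± 0.22 (adjusted p = 0.831).

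Since 7 of the 10 genes lie in the MHC region, the other genes between H2-K1 and H2-D1 were counted as well. The table holds 129 such genes, of which 61 were tested, and 44.3% of these were called between the lines in each culture, 16 higher and 11 lower in D2.OR in 2D and 13 higher and 14 lower in 3D, against 49.8% and 53.8% of all genes. Their medians were 0.05 and -0.19, beside 0.69 and 0.98 for the 10 class I genes. For 3D–2D none of the 61 was called in D2.OR by edgeR, where DESeq2 called 6, and 1 in D2A1, Neu1 (-0.94, adjusted p = 0.0478), where DESeq2 called 9. Over all genes, edgeR called 1.62% in D2.OR and 3.48% in D2A1, and DESeq2 1174 of 16170 and 3512 of 15192. The medians of the 61 were -0.08 and 0.08.

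Genes whose pattern was most like that of the 10 class I genes were found by Pearson's r between their log2 CPM and the mean z-score of the 10 genes over the 12 libraries. These libraries share lines, cultures and batches, so r is a description. The 5 highest were Gm11127 (0.984), Trim34b (0.980), H2-Q4 (0.980), Zbp1 (0.978) and H2-Q1 (0.978). Of these, H2-Q4 and H2-Q1 are class I heavy chain genes, which share reads with the classical heavy chains, and Zbp1 is an interferon-induced sensor of nucleic acid in Z form. Zbp1 was at 228 ± 42.6 TPM in D2.OR 2D, 75.4 ± 9.64 in D2.OR 3D, 97.5 ± 23.6 in D2A1 2D and 38.0 ± 41.3 in D2A1 3D (SD, n = 3). After group and batch means were taken out, the 5 highest were Bst2 (0.990), Mpzl1 (0.971), Aldh1l1 (0.971), Dhx58 (0.968) and Mndal (0.968), of which Bst2, Dhx58 and Mndal are interferon-induced. Within the 10 genes, r with their own mean ran from 0.871 for Psmb10 to 0.995 for Tap1, and after the means were taken out from 0.570 for Psmb10 to 0.982 for Tap1.

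Of the macrophage and dendritic cell markers, 8 were measured, and their summed level was 24.6 to 72.8 TPM in D2A1 2D, 40.5 to 193 TPM in D2A1 3D, 17.96 to 51.3 TPM in D2.OR 2D and 12.7 to 56.0 TPM in D2.OR 3D. Cd14 and Cd68 made up nearly all of it, with Cd14 at 30.3, 185 and 169 TPM in D2A1 3D, highest where the class I genes were lowest. Adgre1, Itgam, Itgax and Lyz2, which define these cells, did not exceed 0.10 TPM in any library. The other 2 of the 8 were low but followed Cd14 in D2A1 3D: Flt3 was at 0.08, 0.84 and 1.11 TPM there and at most 0.09 TPM in D2A1 2D, and Csf1r was at 0.04, 0.17 and 0.53 TPM against at most 0.03 TPM. The part of these markers in the class I differences was not tested.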

How the data were processed

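RNA of 12 libraries was sequenced. Per the study's methods and the submitters' processing notes, the authors checked reads with FastQC 0.11.4, trimmed them with Trimmomatic 0.32, aligned them with STAR 2.5.3 to GRCm38 with GENCODE annotation and quantified genes with RSEM 1.3.0. The deposited files hold RSEM expected counts, TPM and FPKM for each library, and a table of TPM for the series. TPM values of both agreed exactly, and FPKM was not used.

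Expected counts were rounded and fitted with edgeR 4.0.16 (R 4.3.3): TMM scaling, filterByExpr by group with a minimum count of 10, quasi-likelihood test, 4 groups plus batch, Benjamini-Hochberg adjustment over 16823 genes, calls at an adjusted p under 0.05. Log2 CPM used a prior count of 2. Biological variation between replicates, as a common coefficient, came to 21.2%. DESeq2 1.42.0 and limma 3.58.1 on log2(TPM + 1) were alternatives, and all 3 were tested on simulated data. SE is the log2-fold change over the root of the quasi-likelihood F. The batch term follows the study's model and the B numbers of the library names. Deviations from group means correlated between same-batch libraries with a median r of 0.267 (0.0758 to 0.511, 18 pairs), against -0.195 for other pairs. Nothing in the labels says whether replicates were separate cultures. The study's reporting summary gives a minimum of 3 biological repeats for its findings, barring other statements in legends, and does not name the sequencing there. The p-values measure the spread between these samples. Coordinates are those of the deposited table.

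The members and gene lists were chosen with earlier results of these data known. All members are named. Of each list, the 3 genes with the smallest p in a comparison are given, plus Psmb5, Psmb6, Psmb7, Irf1, Irf2 and Rfx5, and the 5 genes most like the members. A further gene that the rule names is not reported here. Genes named outside this rule were chosen after their values were seen.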

Additional observations from a re-analysis of the deposited data

How the results depend on the processing

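The number of the 10 genes called changed with the settings more than the estimates did. Over 24 alternatives, the estimates kept their sign in 236 of 240 values for the line difference in 2D, and in 240 of 240 for the line difference in 3D and for the culture difference of each line. The sign was kept in 206 of 230 values for the interaction, and in 197, 200 and 195 of 200 for batches 2 and 1, 3 and 1, and 3 and 2. In 2D between the lines, 3 genes were called (of all genes, 8378 of 16823), against 0 with no replicate block (7391), 6 by DESeq2 (8796), 1 when scaled by library total alone (8793) and 8 with only the 6 libraries compared (5759 of 15359), and leaving out replicates gave 0 to 8. In 3D between the lines, 5 were called (9044 of all genes), against 3 with no replicate block (8037 of all genes) and 9 by DESeq2 (9431), and leaving out replicates gave 0 to 10. For 3D–2D in D2.OR, 0 were called (273 of all genes), against 4 by DESeq2 (1174 of 16170), 2 with no filter (415 of 29824) and 5 with only the 6 libraries (809 of 15693), and leaving out replicates gave 0 to 9. For 3D–2D in D2A1, 4 were called (586 of all genes), against 0 with no replicate block (52), 9 by DESeq2 (3512 of 15192), 8 by limma with a pseudocount of 1 or 0.1 (761 and 1135), 7 with DESeq2's size factors (792), 7 with no filter (1117 of 29824), 7 with at least 10 counts in every library (775 of 12967) and 0 with only the 6 libraries (15 of 15293), and leaving out replicates gave 0 to 10. The interaction gave 0 to 3 when replicates were left out. Between batches 2 and 1, 1 was called (1140 of all genes), 2 by DESeq2 (2288) and 0 to 2 when replicates were left out. Between batches 3 and 1, 2 were called (1359 of all genes), 6 by DESeq2 (2582 of 15518), 1 by limma with either pseudocount (959 and 1183) and 0 to 6 when replicates were left out. Scaling by library total moved the median of all genes to -0.17 in 2D and -0.10 in 3D between the lines. The causes were not tested. The lowest count of any of these genes in a library was 134, and the effect of depth was not tested.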
